A study of Mus musculus with 23 samples.

Results

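Fatty acid synthesis and oxidation in mouse brain were followed through 10 genes: Fasn, Acaca, Scd1, Scd2, Srebf1, Elovl6, Cpt1a, Cpt1c, Acadm and Ppara. The genes were chosen with earlier results of these data known. A row of the deposited log2 table was taken as a member when the scanner output gave one of these symbols for its identifier, with no measured value in this rule. The rule found 11 of 31395 identifiers, for 10 of 29897 named genes, since Acaca had 2 identifiers (BC023946 and NM_133360). All 10 symbols were found, and all 11 identifiers passed the filter on dim probes. Each of the 11 had at least 1 spot well above background on 23 of 23 arrays.

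Total RNA of 3 brain regions was measured on 23 single-colour Agilent arrays, to find how a palatable diet changes gene expression in lean and obese mice. The mice were female C57BL/6, aged 5 weeks at the start, and the SC group (lean) ate standard chow for 8 weeks while the CM group (obese) chose freely between standard chow and a chocolate mixture. Tissue was taken after an 11-day battery of feeding tests, during which the free choice was paused for some tests and the SC mice also met the chocolate mixture in limited sessions, so the SC group was not free of it. Hypothalamus (HT), striatum (ST) and frontal cortex (FC) came from the same animals, named L52 to L58 (SC) and O52 to O58 (CM), with 4 arrays per group and 3 for CM frontal cortex (O54, O56 and O58).

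The arrays lay on 3 slides, and diet and slide were tied within each region. Slide 1 held SC frontal cortex L54, L56 and L58, SC striatum L52 and the 4 CM striatum arrays. Slide 2 held SC frontal cortex L52, SC striatum L54 and L56, SC hypothalamus L58 and the 4 CM hypothalamus arrays. Slide 3 held SC hypothalamus L52, L54 and L56, SC striatum L58 and the 3 CM frontal cortex arrays. CM frontal cortex therefore shared no slide with SC frontal cortex, and each other region had a single SC array beside the CM arrays on the slide that held both diets. Between 36432 and 42261 spots per array were well above background, and precision is limited by how many arrays there were. In frontal cortex the diets did not overlap in this number, at 36432 to 38472 on SC and 41481 to 42261 on CM. Its part in the diet differences was not tested.

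Values are deposited log2 intensities, background-corrected and quantile-normalised by the authors. Differences are log2 fold changes from 1 limma model of 6 group means fitted to all 31395 identifiers, weighted by array and with a random effect of mouse, given with standard error (SE) or 95% confidence interval (CI). A difference was called at a Benjamini-Hochberg adjusted p under 0.05. Weighting makes a fold change differ from the plain difference of group means. The weights ran from 0.22 to 1.74 on SC arrays and from 0.90 to 2.74 on CM arrays. In SC striatum L56 had 1.06, against 0.27 for L52, 0.52 for L54 and 0.22 for L58, so L56 counted most there. Comparisons within a region or diet share arrays: the CM minus SC difference in frontal cortex and the hypothalamus minus frontal cortex difference on SC arrays both use the 4 SC frontal cortex arrays.

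Cells build fatty acids from acetyl-CoA in the cytosol and burn them, after transfer as carnitine esters, in mitochondria. In brain most of the newly made fatty acid goes into membranes, myelin above all, and oligodendrocytes are rich in the enzymes of synthesis, while astrocytes carry out most of the oxidation. In the hypothalamus, malonyl-CoA and the carnitine palmitoyltransferases are known as parts of the sensing of energy state.

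The labels name the third region hypothalamus in the series design and thalamic region in the sample names, so it was checked against markers. On SC arrays limma called 9 of 12 hypothalamus markers higher in this region than in frontal cortex and 1 lower, led by Pmch (8.15), Hcrt (7.59), Oxt (5.78) and Avp (4.39), with Npy lower by 2.92 and the brightest of the list by array signal, which does not rank genes by RNA. It also called 8 of 8 thalamus markers higher, with a median difference of 3.32 and with Prkcd at 4.94, Tcf7l2 at 4.25 and Slc17a6 at 3.99. The mean log2 intensity of the hypothalamus list was 8.07 ± 0.55 (SD) in SC frontal cortex, 9.04 ± 1.41 in SC striatum and 11.09 ± 1.30 in SC hypothalamus. For the thalamus list, with Rora the brightest, the means were 7.97 ± 0.35, 8.40 ± 1.05 and 11.19 ± 0.54. Both sets of markers were high in this region, so the samples called hypothalamus below may have held thalamic RNA as well, which was not tested. Striatum markers (7, Penk the brightest) were higher in SC striatum than in SC frontal cortex in 7 of 7, and frontal cortex markers (6 of 7 found by symbol) were lower in hypothalamus than in frontal cortex in 5 of 6 on SC arrays. Among the SC striatum arrays L52 stood apart on the hypothalamus list, at 11.03 against 7.69 to 8.75, while on the thalamus list L52 (9.50) and L56 (9.09) lay above L54 (7.43) and L58 (7.57). In CM frontal cortex the striatum marker Drd2 was lower than in SC frontal cortex by 1.58 (adjusted p 0.0258), the only 1 of the 7 striatum markers called there, and the list mean was 10.61 ± 1.32 against 11.36 ± 1.15.

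The probes behind the members decide what each value reads, and they are given as the first 30 of their 60 bases, 5′ to 3′, in mm9 coordinates of the array annotation. The set for the enzymes and the regulator whose levels differed most between regions, each read by 1 probe, is shown first, with Fasn, the synthase, beside them.
Scd1 (NM_009127), chr19:44469417-44469446, minus strand: actcctgggctaagtatctgacagtctcac
Scd2 (NM_009128), chr19:44381024-44381053, plus strand: acatttggggatcctctgcagaggagtatt
Elovl6 (NM_130450), chr3:129341248-129341277, plus strand: cctaggccctaaacccatattcagagggaa
Srebf1 (NM_011480), chr11:60012694-60012723, minus strand: ggtcggcatccacaggccgcacacttccaa
Fasn (NM_007988), chr11:120667696-120667725, minus strand: attggtagggtacaaaggtgttcagaggat
The 2 identifiers of Acaca rest in part on the same stretch of sequence. The probe of BC023946 and 1 of the 3 probes averaged in NM_133360 are shifted by 1 base on the plus strand and have the same letters over the first 55 bases of their overlap, and capitals mark the 29 shared bases among those printed.
Acaca BC023946, chr11:84215094-84215123: CTTCAGTCCAATGCACTCTTCTCACGTTTt
Acaca NM_133360, chr11:84215093-84215122: gCTTCAGTCCAATGCACTCTTCTCACGTTT
Over the 23 arrays these probes had a Pearson r of 0.936, with a mean log2 difference of 0.22 (SD 0.11), so the 2 rows of Acaca are not independent readings.

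Cpt1c and Ppara were averages over several probes, whose sequences are shown because their values are given apart in the results on those genes. Both Cpt1c probes lie on the minus strand and all 3 Ppara probes on the plus strand.
Cpt1c A_52_P269942, chr7:52215456-52215485: cagacacacctgattgatgtccacaattat
Cpt1c A_55_P2032750, chr7:52216920-52216949: agtgaggtcttgcaccagagaagcctgcca
Ppara A_55_P2071601, chr15:85632534-85632563: aaatgctcctctaggcccctcctttggcag
Ppara A_55_P2055854, chr15:85632110-85632139: ctttgaaaacctacaagtcaaggtgtggcc
Ppara A_55_P2071596, chr15:85637193-85637222: cctgtaagctgatgaatgtaaagagttaat

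Promoters were searched because several members moved together between regions. RefSeq promoter sequences (GRCm38.p6, 250 bases upstream of the start) were at hand for 8 of the 10 genes in 10 windows, with none for Scd1 and Scd2. On both strands, TCACNCCAC (the core of a sterol regulatory element) was in 0 of the 10 windows and in 1.05% of all 32851 windows. A direct repeat of AGGTCA spaced by 1 base, the element of the peroxisome proliferator-activated receptors, was in 0 of the 10 and in 0.0335% of all. A pair of shorter motifs was added after the first results: CCAAT was in 5 of the 10 windows (Cpt1a, Cpt1c, Fasn and Srebf1) and in 33.8% of all, and AGGTCA in 4 of the 10 (Acadm, Cpt1a, Cpt1c and Elovl6) and in 14% of all. The window of Elovl6 and 1 of the 3 windows of Srebf1 are printed, as these members had a window and differed most between regions, and capitals mark the reverse complement of AGGTCA in Elovl6 and of CCAAT in Srebf1. Of the 3 Srebf1 windows, 1 had no CCAAT. A match is a description of letters only.
Elovl6, chr3:129532136-129532385, plus strand: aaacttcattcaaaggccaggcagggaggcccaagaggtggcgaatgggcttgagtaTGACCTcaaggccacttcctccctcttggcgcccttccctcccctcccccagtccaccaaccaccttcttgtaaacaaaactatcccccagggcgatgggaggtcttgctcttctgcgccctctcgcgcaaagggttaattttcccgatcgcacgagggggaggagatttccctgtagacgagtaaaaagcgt
Srebf1, chr11:60210472-60210721, minus strand: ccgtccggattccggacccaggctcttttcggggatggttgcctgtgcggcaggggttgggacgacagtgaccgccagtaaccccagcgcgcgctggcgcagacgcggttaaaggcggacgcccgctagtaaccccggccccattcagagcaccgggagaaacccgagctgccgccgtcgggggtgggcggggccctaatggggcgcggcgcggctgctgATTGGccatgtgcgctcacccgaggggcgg

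Whether the members differ between regions in mice on chow was asked on the SC arrays. Between hypothalamus and frontal cortex limma called 6 of 11 identifiers (54.5%), against 43.2% of all identifiers, with 5 higher in hypothalamus (22.8% of all were) and 1 lower (20.4%). The arrays of the 2 groups did not overlap for 6 of 11 (32.4% of all). Between hypothalamus and striatum 6 of 11, for 5 genes, were called (21.5% of all), all 6 higher in hypothalamus (10.7% of all), and 5 did not overlap (21.7%). Without SC hypothalamus L56 limma no longer called Scd2 (adjusted p 0.0505), Srebf1 (0.0609) or Elovl6 (0.119) there. Between striatum and frontal cortex 2 of 11 were called (14.9% of all) and 0 of 11 did not overlap (11.4%). Without SC striatum L56 these calls, Acaca NM_133360 (limma adjusted p 0.378) and Scd2 (0.523), were lost. Without SC striatum L54 limma also called Acaca BC023946 (adjusted p 0.0443), Scd1 (0.0214) and Srebf1 (0.0286). Against these backgrounds the share of members that was called higher in hypothalamus exceeded the share of all identifiers, while the number called in either direction against frontal cortex was close to it. With a fixed slide block the calls were 5, 5 and 3 of 11 in these comparisons, against 14.8%, 15% and 10.9% of all identifiers.

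The same region comparisons on the CM arrays, added after the first results, had a high background, with each CM region on a slide of its own. In hypothalamus against frontal cortex 10 of 11 identifiers (9 genes) were called (57.8% of all), 8 of them higher (29.5%), and 9 did not overlap (56.4%). In hypothalamus against striatum 7 of 11 (6 genes) were called (56.3%), 6 of them higher (30.4%), and 6 did not overlap (50.3%). In striatum against frontal cortex 10 of 11 were called (60.6%), 8 of them higher (30.5%), and 10 did not overlap (59.3%). With a fixed slide block the calls on CM arrays were 4 (16% of all), 5 (19.4%) and 0 (3.17%) of 11 in the order given. In the last of these limma gave 2 of 11 at an unadjusted p under 0.05. Called with the block in both hypothalamus comparisons on CM arrays were Scd1, Scd2, Srebf1 and Elovl6, with Acaca BC023946 also called against striatum.

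**Figure D1:**
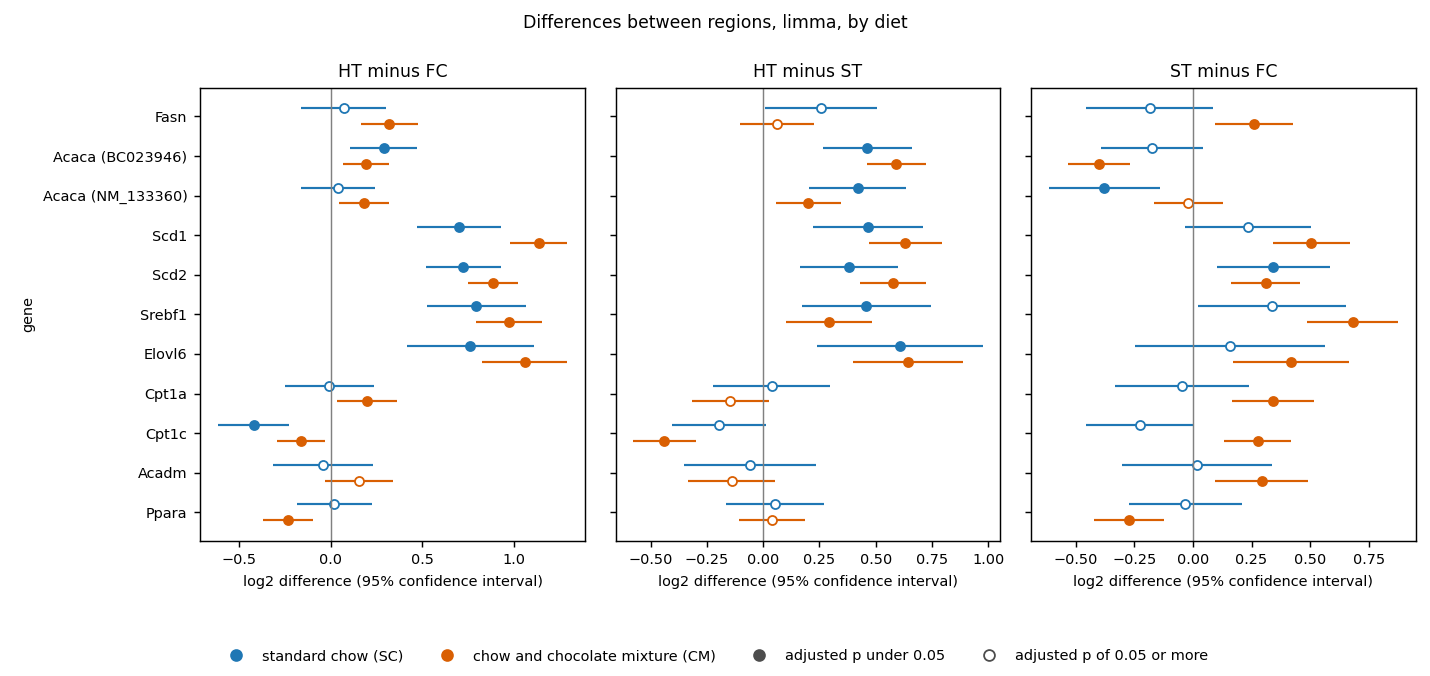
Log2 fold change with 95% confidence interval of each member identifier between regions (hypothalamus minus frontal cortex, hypothalamus minus striatum, striatum minus frontal cortex), on SC and on CM arrays, with filled points at adjusted p under 0.05. Scd1, Scd2, Srebf1 and Elovl6 lie right of 0 in hypothalamus minus frontal cortex at 0.70 to 0.80 on SC arrays, and Cpt1c lies left of 0 at −0.42.

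Whether free choice of the chocolate mixture changed the members was asked in each region. In frontal cortex limma called 2 of 11 identifiers (18.2%), Cpt1c and Scd1, against 28.6% of all identifiers, both lower on CM (13.2% of all were). Arrays of the 2 diets did not overlap for 3 of 11 (27.3%), Cpt1c, Fasn and Ppara, against 25.3% of all. At an unadjusted p under 0.05 there were 5 of 11 (Cpt1a, Cpt1c, Fasn, Ppara and Scd1), against 40% of all. These shares are near or under the background and are no result about the members as a list. In striatum limma called 0 of 11 (9.82% of all) with 2 of 11 at an unadjusted p under 0.05 (Acaca NM_133360 and Cpt1c; 25.5% of all), and 0 of 11 did not overlap (7.67%). In hypothalamus limma called 0 of 11 (0.43% of all) with 0 of 11 at an unadjusted p under 0.05 (13.2%), and 0 of 11 did not overlap (6.77%). Under the thresholds of the study (2-fold and adjusted p under 0.01 in frontal cortex and striatum, 1.5-fold and adjusted p under 0.05 in hypothalamus) limma gave 0 of 11 in each region, against 2.94%, 0.602% and 0.178% of all.

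The difference between the diet effects of a pair of regions was tested as an interaction in the same limma model. Frontal cortex and striatum differed for 3 of 11 (27.3%), Fasn, Acaca NM_133360 and Cpt1c, against 30.1% of all identifiers. Frontal cortex and hypothalamus differed for 1 of 11 (9.09%), Scd1, against 20% of all. Striatum and hypothalamus differed for 0 of 11 (0% of all), with 0 of 11 at an unadjusted p under 0.05 (14.8%). With a fixed slide block limma called 0 of 11 members and 0 of 31395 identifiers in every diet comparison and interaction, and at an unadjusted p under 0.05 the members numbered 1 in frontal cortex, 0 in striatum and 0 in hypothalamus, and 1, 1 and 0 in the interactions in the order given. Diet and slide cannot be told apart in frontal cortex from these arrays alone, since that block value leans on the other regions.

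**Figure D2:**
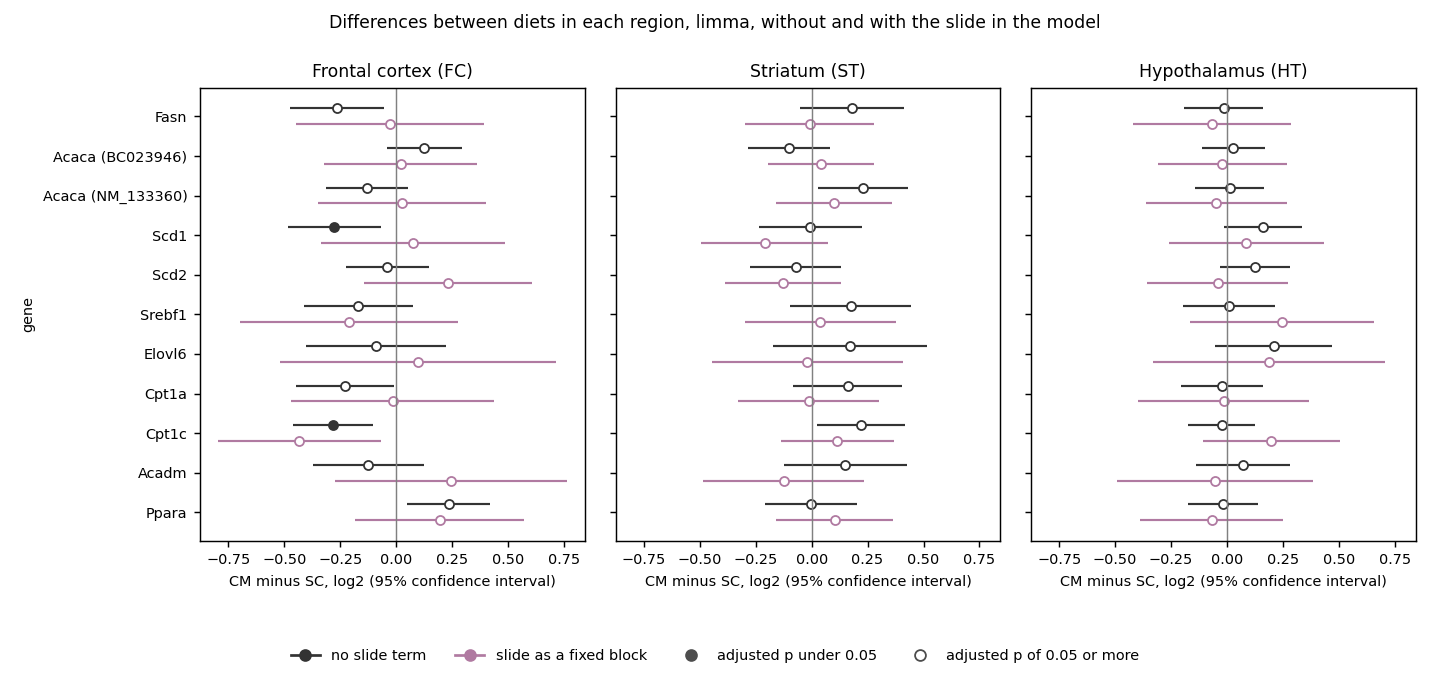
Log2 fold change with 95% confidence interval of each member identifier, CM minus SC, in frontal cortex, striatum and hypothalamus, without the slide in the model and with it as a fixed block. In frontal cortex Cpt1c lies at −0.28 without and −0.43 with the block, and Scd1 at −0.28 without and 0.07 with it.

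**Figure D3:**
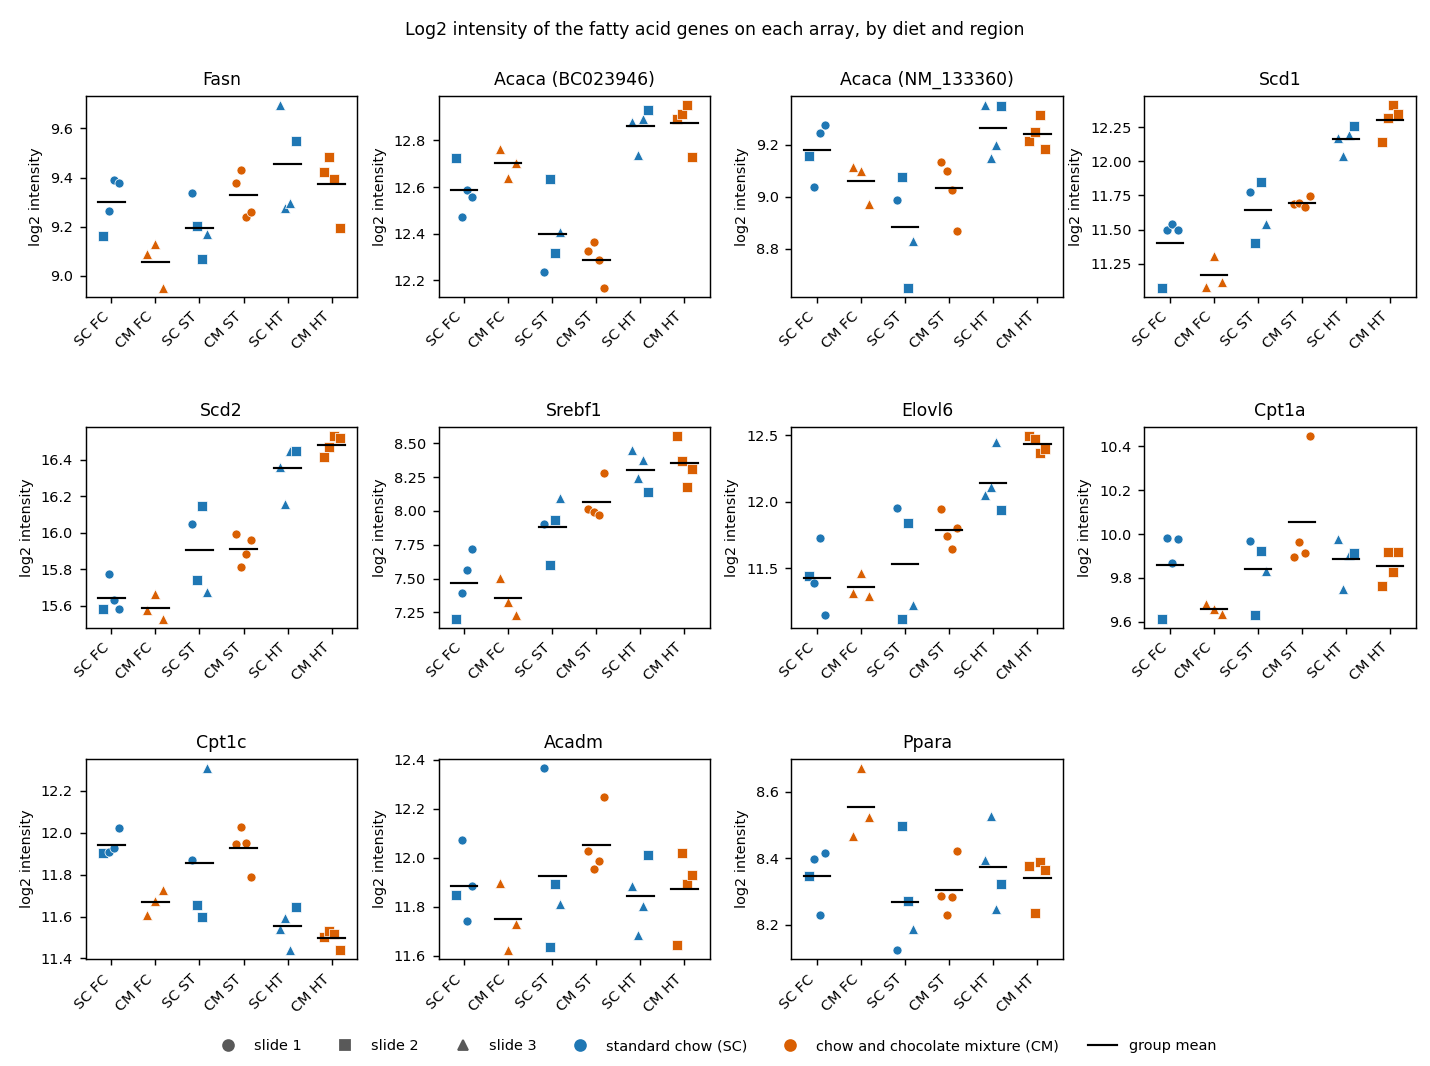
Log2 intensity of each of the 11 member identifiers on each of the 23 arrays by region and diet, with colour for the diet, marker shape for the slide and a bar at the group mean. The Scd1 arrays of hypothalamus lie between 12.04 and 12.41, all above those of frontal cortex and striatum.

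Fasn encodes the synthase that builds palmitate from malonyl-CoA. In frontal cortex Fasn read 9.16, 9.26, 9.39 and 9.38 on SC L52, L54, L56 and L58, and 9.09, 9.13 and 8.95 on CM O54, O56 and O58. In striatum Fasn read 9.34, 9.20, 9.07 and 9.17 on SC and 9.38, 9.43, 9.24 and 9.26 on CM (O52 to O58). In hypothalamus Fasn read 9.70, 9.28, 9.30 and 9.55 on SC and 9.42, 9.48, 9.39 and 9.19 on CM. The CM frontal cortex arrays all lay below the SC ones, by as little as 9.13 against 9.16, and in the other regions the diets overlapped. The CM minus SC difference was −0.26 in frontal cortex (CI −0.47 to −0.05, adjusted p 0.0555, not called; range over 14 alternatives 0.0360 to 0.997; −0.03 with a fixed slide block), and 0.18 in striatum (adjusted p 0.320), and the difference between these effects was −0.45 (SE 0.15, adjusted p 0.0333). The frontal cortex difference was called in 3 of the 14: normexp offset 50 (−0.25, adjusted p 0.0360), the processed signal (−0.26, 0.0423) and a filter for spots well above background (−0.27, 0.0472). The interaction was −0.02 with a fixed slide block, its adjusted p ran from 0.0122 to 1 over 14 alternatives, and it was not called without SC frontal cortex L56 (−0.44, adjusted p 0.0568) or L58 (−0.45, 0.0502), SC striatum L56 (−0.38, 0.0750), CM striatum O52 (−0.43, 0.0538) or O54 (−0.42, 0.0526), or CM frontal cortex O58 (−0.40, 0.0533). Between regions on SC arrays no Fasn difference was called (hypothalamus minus striatum 0.26, adjusted p 0.135), except that hypothalamus minus striatum passed without SC striatum L54 (0.30, adjusted p 0.0473) and, as the 1 of 14 alternatives that did so, with quantile normalisation within each region (0.42, 0.0113). On CM arrays Fasn exceeded frontal cortex in hypothalamus by 0.32 (adjusted p 0.00108) and in striatum by 0.26 (0.00851). With the slide block neither was called (0.25, adjusted p 0.397, and −0.000844, 0.999). The group means ran from CM frontal cortex (9.06 ± 0.09, SD) through SC striatum (9.19 ± 0.11), SC frontal cortex (9.30 ± 0.11), CM striatum (9.33 ± 0.09) and CM hypothalamus (9.37 ± 0.12) to SC hypothalamus (9.45 ± 0.20), with each step at most about the size of the spread.

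Acaca encodes acetyl-CoA carboxylase, which makes the malonyl-CoA that Fasn uses and that inhibits carnitine palmitoyltransferase. In frontal cortex Acaca BC023946 read 12.73, 12.47, 12.59 and 12.56 on SC and 12.76, 12.64 and 12.70 on CM. In striatum Acaca BC023946 read 12.24, 12.64, 12.32 and 12.41 on SC and 12.33, 12.36, 12.29 and 12.17 on CM. In hypothalamus Acaca BC023946 read 12.88, 12.74, 12.89 and 12.93 on SC and 12.89, 12.91, 12.95 and 12.73 on CM. Hypothalamus arrays lay above all striatum arrays on both diets, the SC hypothalamus arrays also above the SC frontal cortex ones, and the diets overlapped in each region. Hypothalamus exceeded striatum by 0.46 on SC (SE 0.09, adjusted p 0.00120, 1.38-fold) and by 0.59 on CM (adjusted p 1.28e-07), with the first called in all 14 alternatives (adjusted p 0.000134 to 0.0222). The slide block left it at 0.46 (adjusted p 0.0222), and within slides 2 and 3 it was 0.45 and 0.43. Hypothalamus exceeded frontal cortex by 0.29 on SC (SE 0.09, adjusted p 0.0124) but by 0.17 with the slide block (adjusted p 0.564, range over alternatives 0.00102 to 0.564) by 0.21 within slide 2 and, with the processed signal of the scanner software by 0.08 (0.484), and was called without each array in turn. Its diet differences were 0.12, −0.10 and 0.03 in frontal cortex, striatum and hypothalamus, none called. Its diet effect in frontal cortex minus that in striatum was 0.23 (adjusted p 0.168, range over 14 alternatives 0.141 to 1), −0.02 with the slide block, and called at 0.38 (0.0267) without SC striatum L56.

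The other identifier, NM_133360, averaged 3 probes. In frontal cortex Acaca NM_133360 read 9.16, 9.04, 9.24 and 9.27 on SC and 9.12, 9.10 and 8.97 on CM. In striatum Acaca NM_133360 read 8.99, 9.07, 8.65 and 8.83 on SC and 9.13, 9.10, 9.03 and 8.87 on CM. In hypothalamus Acaca NM_133360 read 9.35, 9.15, 9.20 and 9.35 on SC and 9.21, 9.25, 9.31 and 9.18 on CM. All SC hypothalamus arrays lay above all SC striatum arrays, where L56 was the lowest at 8.65. That difference was 0.42 (SE 0.10, adjusted p 0.00562), 0.44 with the slide block (adjusted p 0.0428, range over 14 alternatives 0.000284 to 0.0428), and 0.21 (adjusted p 0.158, not called) without SC striatum L56. Striatum was lower than frontal cortex on SC by 0.38 (adjusted p 0.0301, range 0.0173 to 0.157), with overlapping arrays, and was not called without SC striatum L52 (−0.33, adjusted p 0.0723) or L56 (−0.17, 0.378), or SC frontal cortex L56 (−0.38, 0.0575). The diet effect in frontal cortex minus that in striatum was −0.36 (SE 0.13, adjusted p 0.0471, range 0.0302 to 1), opposite in sign to that of BC023946, and −0.08 with the slide block. It was not called without SC striatum L52 (−0.31, adjusted p 0.0896) or L56 (−0.15, 0.372), SC frontal cortex L52 (−0.35, 0.0507), L56 (−0.36, 0.0698) or L58 (−0.35, 0.0709), CM striatum O52 (−0.33, 0.0789), O54 (−0.34, 0.0723) or O56 (−0.36, 0.0631), or CM frontal cortex O56 (−0.39, 0.0512) or O58 (−0.32, 0.0767). Of the 3 probes 1 had a called interaction: A_55_P2084703 gave −0.86 (adjusted p 0.00309), with diet differences of −0.40 in frontal cortex (0.0294) and 0.46 in striatum (0.0469), A_55_P2121392 −0.17 (0.544) and A_55_P2019058, the probe that shares 55 bases with BC023946, −0.05 (0.795). The called probe, A_55_P2084703, was the dimmest of the 3, with group means of 6.23 to 6.62. Those of A_55_P2121392 were 7.79 to 8.26 and those of A_55_P2019058 were 12.63 to 13.02.
In both rows of Acaca the group means were lowest in striatum and highest in hypothalamus, in BC023946 from CM striatum (12.29 ± 0.08) and SC striatum (12.40 ± 0.17) through SC frontal cortex (12.59 ± 0.11) and CM frontal cortex (12.70 ± 0.06) to SC hypothalamus (12.86 ± 0.09) and CM hypothalamus (12.87 ± 0.10), and in NM_133360 from SC striatum (8.89 ± 0.19) through CM striatum (9.03 ± 0.12), CM frontal cortex (9.06 ± 0.08), SC frontal cortex (9.18 ± 0.11) and CM hypothalamus (9.24 ± 0.05) to SC hypothalamus (9.26 ± 0.10). No diet difference of the 2 rows was called (NM_133360 in striatum 0.23, adjusted p 0.139), except for NM_133360 in striatum without SC L54 (0.35, adjusted p 0.00786). Without SC L56 that value was 0.02 (adjusted p 0.905), and within slide 1 it was 0.05.

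Scd1 encodes a stearoyl-CoA desaturase, which turns saturated into monounsaturated fatty acids. In frontal cortex Scd1 read 11.08, 11.50, 11.54 and 11.50 on SC and 11.08, 11.30 and 11.12 on CM. In striatum Scd1 read 11.78, 11.40, 11.85 and 11.54 on SC and 11.69, 11.69, 11.67 and 11.74 on CM. In hypothalamus Scd1 read 12.17, 12.04, 12.19 and 12.26 on SC and 12.14, 12.32, 12.41 and 12.34 on CM. Every hypothalamus array lay above every array of the other regions, and SC frontal cortex L52 lay at the level of the CM arrays, apart from the other 3 SC arrays. Hypothalamus exceeded frontal cortex by 0.70 on SC (SE 0.11, adjusted p 4.95e-05, 1.62-fold) and by 1.14 on CM (SE 0.07, adjusted p 1.24e-10, 2.20-fold), and these differed by the interaction test: the diet effect in frontal cortex minus that in hypothalamus was −0.44 (SE 0.13, adjusted p 0.0255, range over 14 alternatives 0.0121 to 1). With a fixed slide block the region difference was 1.04 on SC (adjusted p 0.00123, range 7.2e-06 to 0.00123) and 1.05 on CM (0.000471), the interaction was −0.01, and within slide 2 the SC difference was 1.18 between single arrays. Hypothalamus exceeded striatum by 0.47 on SC (adjusted p 0.00663) and 0.63 on CM (9.7e-07), and on SC by 0.62 with the block (0.0111, range 0.000848 to 0.0124) and 0.63 and 0.59 within slides 2 and 3. Both SC region differences were called without each array in turn, at 0.65 to 0.74 against frontal cortex and 0.34 to 0.70 against striatum.

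The diet comparison called Scd1 lower on CM in frontal cortex, by 0.28 (CI −0.49 to −0.07, adjusted p 0.0434, 1.21-fold), though the arrays overlapped through SC L52. It was not called without SC L54 (−0.26, adjusted p 0.115), L56 (−0.24, 0.124) or L58 (−0.29, 0.0598), or CM O54 (−0.25, 0.0960) or O58 (−0.27, 0.0667). With a fixed slide block the sign changed, to 0.07 (SE 0.20, adjusted p 0.988, range over 14 alternatives 0.0233 to 0.988, called in 8). SC L52, the SC frontal cortex array that read as low as the CM arrays, was also the 1 SC frontal cortex array off slide 1. In striatum and hypothalamus the diet differences were −0.01 and 0.16 (adjusted p 0.428 for the second), neither called. The interaction with hypothalamus was lost without SC frontal cortex L54 (−0.42, adjusted p 0.0578) or L56 (−0.40, 0.0598), SC hypothalamus L54 (−0.39, 0.0699) or CM hypothalamus O56 (−0.38, 0.0633), and that with striatum was −0.27 (adjusted p 0.184), but passed without SC striatum L56 (−0.51, 0.0143). Scd1 means ran from CM frontal cortex (11.17 ± 0.12) through SC frontal cortex (11.40 ± 0.22), SC striatum (11.64 ± 0.21) and CM striatum (11.70 ± 0.03) to SC hypothalamus (12.17 ± 0.09) and CM hypothalamus (12.30 ± 0.11). The step from striatum to hypothalamus exceeded the spread, and the step between the diets in frontal cortex was about the size of it.

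Scd2 encodes the desaturase that is abundant in brain. In frontal cortex Scd2 read 15.58, 15.77, 15.63 and 15.58 on SC and 15.58, 15.66 and 15.53 on CM. In striatum Scd2 read 16.05, 15.74, 16.15 and 15.68 on SC and 15.99, 15.81, 15.88 and 15.96 on CM. In hypothalamus Scd2 read 16.36, 16.16, 16.45 and 16.45 on SC and 16.42, 16.47, 16.53 and 16.52 on CM. All hypothalamus arrays lay above all others, by 16.16 against 16.15 at the closest, and SC striatum split into L52 and L56 above L54 and L58. Scd1 split there in the same way, as did the thalamus list (9.50 and 9.09 against 7.43 and 7.57), and L52 also stood apart on the hypothalamus list (11.03), but the part of these markers was not tested. Hypothalamus exceeded frontal cortex by 0.72 on SC (SE 0.10, adjusted p 9.95e-06, 1.65-fold) and 0.89 on CM (7.47e-10, 1.85-fold), and on SC by 0.96 with the slide block (0.00113, range over 14 alternatives 2.54e-06 to 0.00113) and 0.86 within slide 2. Hypothalamus exceeded striatum by 0.38 on SC (adjusted p 0.0120, range 0.00199 to 0.0785), by 0.57 with the block (0.0110) and by 0.58 on CM (6.93e-07), and the SC difference was not called without SC hypothalamus L56 (0.33, adjusted p 0.0505) or with the processed signal (0.25, 0.0785). Striatum exceeded frontal cortex on SC by 0.34 (adjusted p 0.0491, range 0.0220 to 0.0809; 0.39 and 0.0331 with the block), with overlap. That call was lost without any 1 of SC frontal cortex L52 (0.32, adjusted p 0.0652), L54 (0.37, 0.0544), L56 (0.36, 0.0760) or L58 (0.33, 0.0786) and without SC striatum L52 (0.25, 0.179) or L56 (0.13, 0.523). Diet differences were −0.04, −0.07 and 0.12 in frontal cortex, striatum and hypothalamus, none called. Means ran from CM frontal cortex (15.59 ± 0.07) and SC frontal cortex (15.64 ± 0.09) through SC striatum (15.90 ± 0.23) and CM striatum (15.91 ± 0.08) to SC hypothalamus (16.35 ± 0.14) and CM hypothalamus (16.48 ± 0.05), with no difference beyond the spread between the diets.

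Elovl6 encodes the elongase that lengthens palmitate to stearate. In frontal cortex Elovl6 read 11.44, 11.39, 11.73 and 11.15 on SC and 11.31, 11.46 and 11.29 on CM. In striatum Elovl6 read 11.95, 11.12, 11.84 and 11.22 on SC and 11.95, 11.74, 11.64 and 11.80 on CM. In hypothalamus Elovl6 read 12.05, 12.11, 12.45 and 11.94 on SC and 12.49, 12.47, 12.36 and 12.40 on CM. All hypothalamus arrays lay above all frontal cortex arrays, while SC striatum was split as in Scd2 and the thalamus list, whose part was not tested, and its L52 (11.95) reached past the lowest SC hypothalamus array. Hypothalamus exceeded frontal cortex by 0.76 on SC (SE 0.17, adjusted p 0.00100, 1.70-fold) and 1.06 on CM (9.36e-08, 2.09-fold), and on SC by 0.95 with the slide block (0.0302, range over 14 alternatives 0.000207 to 0.0302) and 0.49 within slide 2. Hypothalamus exceeded striatum by 0.61 on SC (SE 0.18, adjusted p 0.0172, range 0.00398 to 0.0539), 0.70 with the block (0.0539) and 0.64 on CM (9.93e-05), and the SC difference was not called without SC hypothalamus L56 (0.42, adjusted p 0.119) or SC striatum L58 (0.51, 0.0530). No diet difference was called, the largest being 0.21 in hypothalamus (adjusted p 0.508), except in striatum without SC L56 (0.57, adjusted p 0.0292). Means ran from CM frontal cortex (11.35 ± 0.09) through SC frontal cortex (11.43 ± 0.24), SC striatum (11.53 ± 0.42) and CM striatum (11.78 ± 0.13) to SC hypothalamus (12.14 ± 0.22) and CM hypothalamus (12.43 ± 0.06), with the first 3 within the spread of each other.

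Srebf1 encodes the transcription factor SREBP-1, which drives the genes of fatty acid synthesis. In frontal cortex Srebf1 read 7.20, 7.39, 7.56 and 7.72 on SC and 7.51, 7.32 and 7.23 on CM. In striatum Srebf1 read 7.90, 7.60, 7.93 and 8.10 on SC and 8.01, 7.99, 7.97 and 8.28 on CM. In hypothalamus Srebf1 read 8.45, 8.25, 8.38 and 8.14 on SC and 8.55, 8.37, 8.18 and 8.31 on CM. Hypothalamus arrays lay above all frontal cortex arrays, and above the striatum arrays on SC but not on CM, where O58 of striatum read 8.28. Hypothalamus exceeded frontal cortex by 0.80 on SC (SE 0.13, adjusted p 6.8e-05, 1.74-fold) and 0.97 on CM (9.61e-09, 1.97-fold), and on SC by 0.79 with the slide block (0.0230, range over 14 alternatives 8.1e-06 to 0.0230) and 0.94 within slide 2. Hypothalamus exceeded striatum by 0.46 on SC (adjusted p 0.0209, range 0.00152 to 0.306), but by 0.32 with the block (0.306), 0.38 and 0.26 within slides 2 and 3, and 0.44 (0.0609, not called) without SC hypothalamus L56. Striatum minus frontal cortex was 0.34 on SC (adjusted p 0.144, range 0.0283 to 0.170; 0.47 and 0.0499 with the block), and passed without SC striatum L54 (0.42, 0.0286). Diet differences were −0.17, 0.17 and 0.01 in frontal cortex, striatum and hypothalamus, none called. Means ran from CM frontal cortex (7.35 ± 0.14) and SC frontal cortex (7.47 ± 0.22) through SC striatum (7.88 ± 0.21) and CM striatum (8.06 ± 0.14) to SC hypothalamus (8.30 ± 0.14) and CM hypothalamus (8.35 ± 0.15), and the diets did not differ beyond the spread in any region.

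Ppara encodes the nuclear receptor PPAR alpha, which drives genes of fatty acid oxidation. In frontal cortex Ppara read 8.35, 8.40, 8.23 and 8.42 on SC and 8.47, 8.67 and 8.52 on CM. In striatum Ppara read 8.12, 8.50, 8.27 and 8.19 on SC and 8.29, 8.23, 8.28 and 8.42 on CM. In hypothalamus Ppara read 8.39, 8.53, 8.25 and 8.32 on SC and 8.38, 8.24, 8.39 and 8.37 on CM. The CM frontal cortex arrays all lay above the SC ones, and elsewhere the diets overlapped. The diet difference in frontal cortex was 0.23 (CI 0.05 to 0.42, adjusted p 0.0547, not called; range over 14 alternatives 0.000139 to 0.911), 0.20 with the slide block (0.911), and passed without SC L58 (0.29, 0.0348) or CM O54 (0.27, 0.0421). Its diet difference there was also called in 4 of the 14 alternatives: normexp offset 50 (0.22, adjusted p 0.0222), the processed signal (0.36, 0.00651), a filter for spots well above background (0.24, 0.0457) and the brightest probe alone (0.64, 0.000139). Its interactions with striatum (0.24, adjusted p 0.189, range 3.16e-05 to 1) and hypothalamus (0.25, 0.139, range 0.000246 to 1) were not called, but each was with the processed signal (0.49, adjusted p 0.0131, and 0.42, 0.0221) and with the brightest probe alone (1.095, 3.16e-05, and 0.83, 0.000246). On SC arrays no region difference of the Ppara average was called, while the brightest probe gave 0.46 for hypothalamus minus frontal cortex (adjusted p 0.00217, range over 14 alternatives 0.00217 to 0.980) and 0.40 for striatum minus frontal cortex (0.0443, range 0.0443 to 0.997). That probe is A_55_P2071601. On CM arrays limma called the Ppara average lower in striatum and in hypothalamus than in frontal cortex. With the slide block neither was called (−0.20, adjusted p 0.660, and −0.28, 0.280). Ppara means were 8.27 ± 0.16 in SC striatum, 8.31 ± 0.08 in CM striatum, 8.34 ± 0.07 in CM hypothalamus, 8.35 ± 0.08 in SC frontal cortex, 8.37 ± 0.12 in SC hypothalamus and 8.55 ± 0.11 in CM frontal cortex, with the first 5 within their spread.

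The 3 Ppara probes did not move together. Over 23 arrays their values had a Pearson r of −0.544, −0.198 and 0.744. Probe A_55_P2071601 read 9.05 to 9.16 on the 8 arrays of slide 1, 9.35 to 9.67 on the 8 of slide 2 and 9.59 to 9.96 on the 7 of slide 3. Slide 1 thus stood apart, slides 2 and 3 overlapped, and slide was tied to region and diet. The diet difference of this probe was 0.64 in frontal cortex (SE 0.10, adjusted p 0.000139) and −0.45 in striatum (0.0141), each between groups on different slides for most arrays. Probe A_55_P2055854 read 8.94 to 9.38, 8.63 to 9.10 and 8.34 to 9.07 on slides 1 to 3, with diet differences of −0.18 in frontal cortex (adjusted p 0.362) and 0.42 in striatum (0.0848), and its interaction between these regions was −0.60 (0.0381), opposite in sign to that of A_55_P2071601. Probe A_55_P2071596 gave 0.03 in frontal cortex (adjusted p 0.854) and 0.23 in striatum (0.214). Among the 3 probes, only A_55_P2071601 had a called diet difference in frontal cortex, and the part of the slide in it was not tested.

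**Figure D4:**
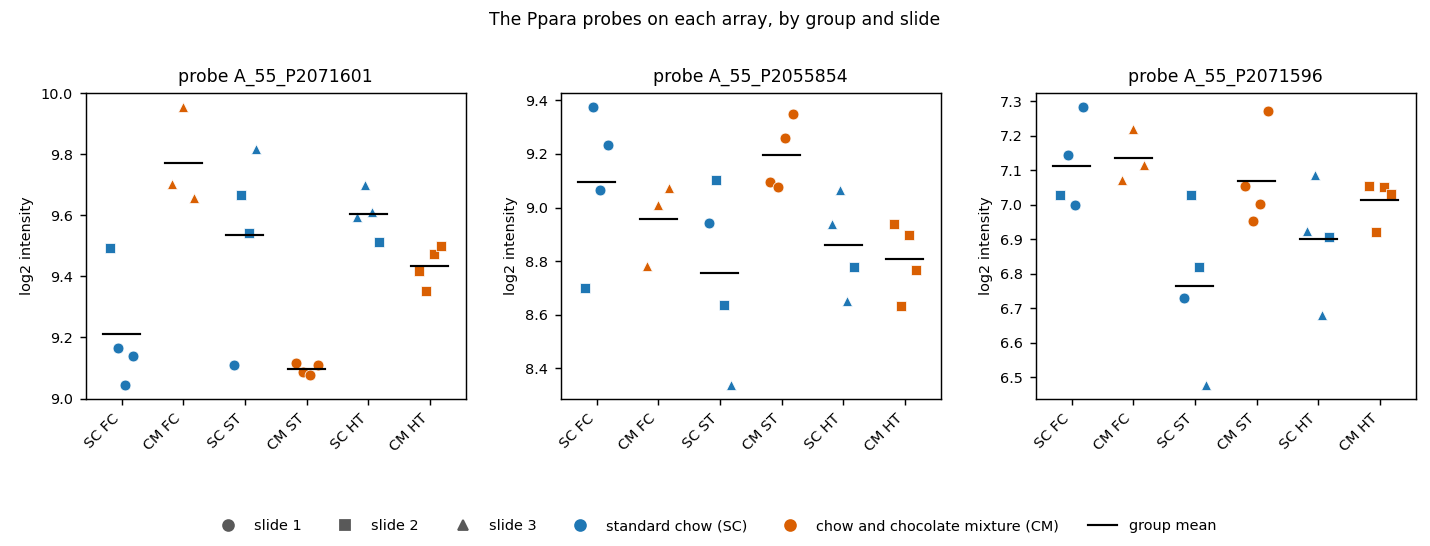
Log2 intensity of each of the 3 Ppara probes on 23 arrays by region and diet, with marker shape for the slide. The markers of probe A_55_P2071601 separate slide 1 (9.05 to 9.16) from slides 2 and 3 (9.35 to 9.96).

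Cpt1c encodes the brain carnitine palmitoyltransferase, which binds malonyl-CoA and lies in the endoplasmic reticulum of neurons. In frontal cortex Cpt1c read 11.90, 11.91, 11.92 and 12.02 on SC and 11.61, 11.67 and 11.73 on CM. In striatum Cpt1c read 11.87, 11.65, 11.60 and 12.31 on SC and 11.95, 12.03, 11.95 and 11.79 on CM. In hypothalamus Cpt1c read 11.54, 11.59, 11.44 and 11.65 on SC and 11.50, 11.53, 11.52 and 11.44 on CM. The CM frontal cortex arrays all lay below the SC ones, the SC hypothalamus arrays all below SC frontal cortex, and SC striatum spread widely, with L58 the highest of all 23. Cpt1c was lower on CM in frontal cortex by 0.28 (CI −0.46 to −0.10, adjusted p 0.0180, 1.22-fold). It was called in 11 of 14 alternatives (adjusted p 0.00736 to 0.610), and not with a fixed slide block (−0.43, CI −0.80 to −0.07, 0.610), a random slide block (−0.31, 0.0929) or no array weights (−0.27, 0.145). With single arrays left out it was not called without SC frontal cortex L58 (−0.24, 0.0553) or CM frontal cortex O54 (−0.25, 0.0576). In striatum the diet difference was 0.22 (adjusted p 0.145), passing without SC striatum L54 (0.27, 0.0372) or L58 (0.29, 0.0341) or with the brighter probe alone (0.32, 0.0425), and in hypothalamus it was −0.02. The diet effect in frontal cortex differed from that in striatum by −0.50 (SE 0.13, adjusted p 0.00642, range 0.00156 to 1), and this was called without each array in turn as well. It was not called with a fixed slide block (−0.55, CI −1.06 to −0.04, adjusted p 0.9999), a random slide block (−0.52, 0.0576) or no array weights (−0.34, 0.153). The difference from hypothalamus was −0.26 (adjusted p 0.114).

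Both Cpt1c probes gave the frontal cortex difference, A_52_P269942 at −0.25 (adjusted p 0.0423) and A_55_P2032750 at −0.31 (0.0149), with a Pearson r of 0.939 over 23 arrays. Against frontal cortex, hypothalamus was lower in Cpt1c on SC by 0.42 (SE 0.09, adjusted p 0.00127, 1.34-fold) and, with the slide block, by 0.55 (0.0319, range over 14 alternatives 0.000366 to 0.0319), and was so called without each SC array in turn. Against striatum on SC the difference was −0.20 (adjusted p 0.185), −0.42 with the block (0.0476), and 0.02 and −0.79 within slides 2 and 3. On CM hypothalamus minus frontal cortex was −0.16 (adjusted p 0.0329), and 0.08 with the block (0.816). That call was lost without CM hypothalamus O52 or O58 or CM frontal cortex O56 or O58. On CM hypothalamus minus striatum was −0.44 (adjusted p 1.26e-05), and −0.34 with the block (0.0698). Means ran from CM hypothalamus (11.50 ± 0.04) and SC hypothalamus (11.55 ± 0.09) through CM frontal cortex (11.67 ± 0.06) and SC striatum (11.86 ± 0.32) to CM striatum (11.93 ± 0.10) and SC frontal cortex (11.94 ± 0.06), with SC striatum within its spread of its neighbours.

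Cpt1a, the palmitoyltransferase that admits fatty acids to mitochondria, and Acadm, the medium-chain acyl-CoA dehydrogenase of their oxidation, had no called difference on SC arrays or between diets. Cpt1a means were 9.86 ± 0.17 in SC frontal cortex, 9.66 ± 0.02 in CM frontal cortex, 9.84 ± 0.15 in SC striatum, 10.06 ± 0.26 in CM striatum, 9.89 ± 0.10 in SC hypothalamus and 9.86 ± 0.07 in CM hypothalamus. CM frontal cortex was thus lowest, CM striatum was highest through O58 (10.45 against 9.90 to 9.96 on the other 3), and the other 4 groups were within their spread of each other. In frontal cortex Cpt1a read 9.61, 9.98, 9.87 and 9.98 on SC and 9.68, 9.66 and 9.63 on CM, so that SC L52 lay below all CM arrays and the other SC arrays above them. Its diet difference there was −0.23 (SE 0.11, adjusted p 0.112), and the difference from striatum was −0.39 (adjusted p 0.0719), which passed without SC striatum L52 (−0.46, 0.0393) or L56 (−0.54, 0.0201) or SC frontal cortex L52 (−0.44, 0.0363). The 2 Cpt1a probes had a Pearson r of 0.353 and gave −0.22 (A_51_P427674, adjusted p 0.154) and −0.33 (A_55_P2057405, 0.0387) in frontal cortex. Acadm means were 11.75 ± 0.14 in CM frontal cortex, 11.85 ± 0.14 in SC hypothalamus, 11.87 ± 0.16 in CM hypothalamus, 11.89 ± 0.14 in SC frontal cortex, 11.93 ± 0.31 in SC striatum and 12.05 ± 0.13 in CM striatum, with neighbours within the spread. Hypothalamus minus frontal cortex on SC was −0.01 for Cpt1a and −0.04 for Acadm. On CM arrays striatum exceeded frontal cortex by 0.34 in Cpt1a (adjusted p 0.0015; 0.26 and 0.0017 without CM striatum O58) and by 0.29 in Acadm (0.0115), the second not called without CM frontal cortex O56 (0.21, 0.0938), and with the slide block neither was. Hypothalamus exceeded frontal cortex on CM by 0.20 in Cpt1a (adjusted p 0.0368, range over 14 alternatives 0.00104 to 0.548, called in 9). That call was lost without CM frontal cortex O54 (0.21, adjusted p 0.0655), O56 (0.19, 0.0997) or O58 (0.19, 0.0743) or CM hypothalamus O54 (0.18, 0.101), O56 (0.20, 0.0684) or O58 (0.19, 0.0595), and with the slide block (0.21, 0.548).

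The tissue was bulk, so fewer cells of a type and less RNA per cell cannot be told apart in any of these values. All 12 oligodendrocyte markers were above background on 23 arrays, and their mean log2 intensity was taken per array. In frontal cortex the oligodendrocyte list read 11.80, 12.23, 12.64 and 12.13 on SC and 11.70, 12.01 and 11.89 on CM. In striatum the oligodendrocyte list read 13.16, 12.94, 13.49 and 13.18 on SC and 13.32, 13.20, 13.11 and 13.38 on CM. In hypothalamus the oligodendrocyte list read 13.21, 12.92, 13.17 and 12.96 on SC and 13.28, 13.12, 13.15 and 13.31 on CM. Every frontal cortex array lay below every striatum and hypothalamus array, and those regions overlapped. On SC arrays limma called 11 of 12 markers higher and 1 (Mbp, −0.67) lower in hypothalamus than in frontal cortex, with a median of 0.90 against 0.02 for all identifiers. In striatum against frontal cortex it called 11 higher and 0 lower (median 0.93). Between hypothalamus and striatum it called 0 higher and 1 lower (Mbp, −0.94; median −0.14; 2 at an unadjusted p under 0.05). With the slide block the calls were 7 higher (median 1.13), 10 higher (1.17) and 0 (−0.05), in that order.

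Scd1, Scd2, Srebf1 and Elovl6 were thus higher in hypothalamus than in frontal cortex along with this list, and also higher in hypothalamus than in striatum on SC arrays. The second difference was called with a fixed slide block for Scd1 and Scd2, not for Srebf1 (0.32, adjusted p 0.306, range over 14 alternatives 0.00152 to 0.306) or Elovl6 (0.70, 0.0539, range 0.00398 to 0.0539), and without SC hypothalamus L56 for Scd1 but not for Scd2 (0.33, 0.0505), Srebf1 (0.44, 0.0609) or Elovl6 (0.42, 0.119). The part of oligodendrocytes in either difference was not tested. Between diets in frontal cortex the list went with Scd1: 5 markers were lower on CM (Mag −0.92, Cnp −0.91, Mobp −0.90, Aspa −0.66 and Ugt8a −0.65), 1 was higher (Mbp 0.42), and the median was −0.42 against −0.04 for all identifiers. With the slide block 0 of 12 were called there (median −0.36), and in striatum and hypothalamus limma called 0 of 12 between diets with 0 at an unadjusted p under 0.05. Its part in the Scd1 difference was not tested.

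**Figure D5:**
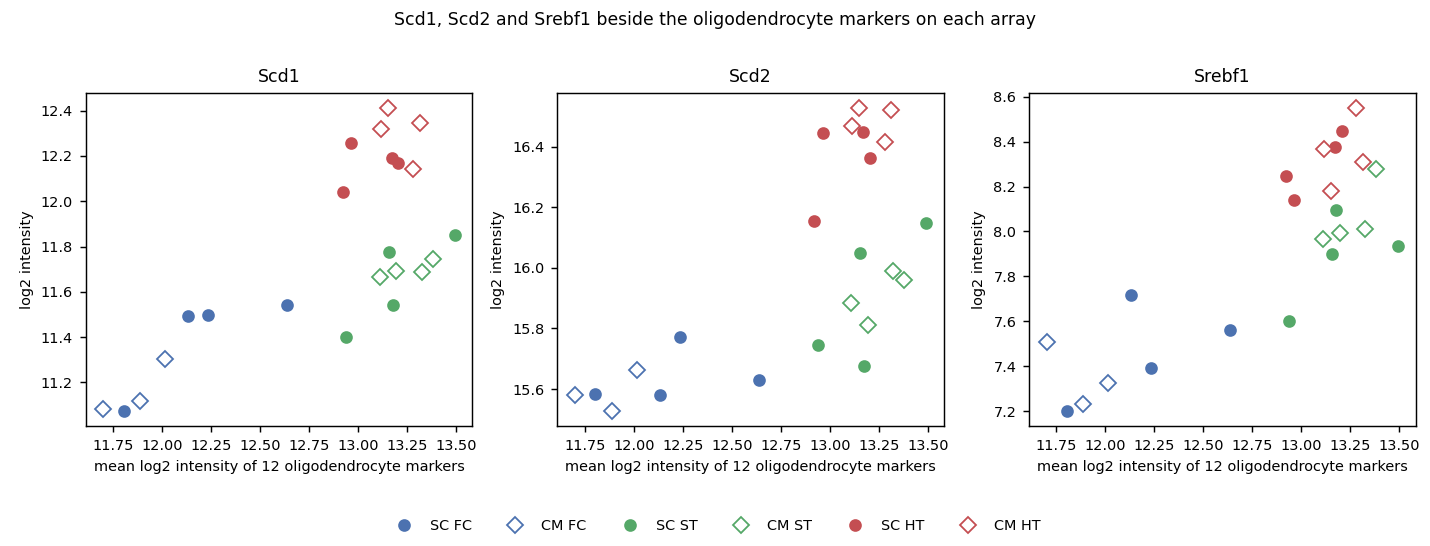
Log2 intensity of Scd1, Scd2 and Srebf1 on each of the 23 arrays against the mean log2 intensity of 12 oligodendrocyte markers on the same array, by region and diet. Frontal cortex arrays lie at list means of 11.70 to 12.64, and striatum (12.94 to 13.49) and hypothalamus (12.92 to 13.31) overlap. Scd1 lies highest in hypothalamus, and the part of the list in this was not tested.

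Other cell type lists were read in the same way. Astrocyte markers (8 of 8, Aldoc the brightest) had list means of 12.81 ± 0.22 in SC frontal cortex, 12.73 ± 0.10 in SC striatum and, over the arrays of SC hypothalamus, 12.85 to 13.10, with 12.69 ± 0.02, 12.78 ± 0.09 and 13.03 ± 0.07 on CM in the same regions. On SC arrays 4 were higher and 1 lower in hypothalamus than in frontal cortex (Gja1 0.89, S100b 0.72, Aqp4 0.69, Aldoc 0.29 and Slc1a2 −1.01) and than in striatum (Gja1 0.82, Aqp4 0.76, Aldoc 0.41, S100b 0.39 and Slc1a2 −0.58), and with the slide block the calls were also 4 higher and 1 lower in each. The list means of SC hypothalamus and SC frontal cortex overlapped (12.55 to 13.02 in the latter), and the part of these markers in the member differences was not tested. Between diets in frontal cortex 2 astrocyte markers were lower (Gfap −0.90, Aldh1l1 −0.33). Microglia markers (7, Itgam the brightest) were lower in SC hypothalamus than in frontal cortex in 5 and than in striatum in 7. Neuron markers (6, Syt1 the brightest) had 1 higher and 2 lower against frontal cortex and 2 higher and 2 lower against striatum, and between diets 1 lower in frontal cortex (Nefl, −0.43) and 1 in striatum (Snap25, −0.49). Their list means in SC were 15.10 ± 0.07 in frontal cortex, 14.86 ± 0.12 in striatum and 14.84 ± 0.09 in hypothalamus, and in CM 15.10 ± 0.04, 14.56 ± 0.10 and 14.83 ± 0.05. In striatum the neuron list did not overlap between the diets (14.74 to 15.02 on SC, 14.46 to 14.68 on CM), and its part in the interactions of Fasn, Acaca and Cpt1c was not tested. The neuron list of SC hypothalamus (14.74 to 14.96) also lay below that of SC frontal cortex (15.02 to 15.18), as Cpt1c did. Its part in that Cpt1c difference was not tested. In SC the means were, for microglia, 11.08 ± 0.12, 11.21 ± 0.11 and 10.71 ± 0.09.

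Endothelial markers (6, Flt1 the brightest) had 1 higher and 1 lower in SC hypothalamus against frontal cortex, and Pecam1 was higher on CM in frontal cortex by 0.52. Choroid plexus markers (6, Ttr the brightest) varied between arrays, with a list mean of 9.69 ± 2.30 in CM striatum and 8.19 ± 0.65 in SC striatum. CM striatum O58 read 13.07, against 7.91 to 8.98 on the other 3, and was also the highest CM striatum array in Srebf1, Cpt1a, Acadm, Ppara and Scd1 and the lowest in Cpt1c and both rows of Acaca. The part of these markers in the member values was not tested. Limma called 0 of these 6 between diets, with 1 in frontal cortex, 0 in striatum and 0 in hypothalamus at an unadjusted p under 0.05. For red blood cell markers (3 of 4 found by symbol, Hba-a1 the brightest) it called 0 between diets, with 0, 1 and 0 at an unadjusted p under 0.05. Adipocyte markers (5, Plin1 the brightest) were near background, with group means of 4.56 to 4.91 and with Adipoq above background on 2 arrays, Cidec on 5, Plin1 on 8, Cfd on 12 and Lep on 15 of 23. Of these limma called Lep higher and Plin1 lower on CM in frontal cortex, and signals this near background give no exact difference.

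The wider pathway was read through 5 lists of genes besides the members, between diets first. In frontal cortex, where the median of all identifiers was −0.04, the other synthesis genes had 0 higher and 5 lower of 22 (median −0.12), led by Fads2 (−0.43, adjusted p 0.0171), Elovl1 (−0.34, 0.0262), Mid1ip1 (−0.34, 0.0106) and Hsd17b12 (−0.31, 0.0175). Lipid regulators had 1 higher and 4 lower of 22 (median −0.08), led by Ppargc1b (0.47, adjusted p 0.00609), Nr1h3 (−0.46, 0.00200), Ppargc1a (−0.46, 0.0417) and Srebf2 (−0.36, 0.0444). Mitochondrial oxidation genes had 0 higher and 4 lower of 21 (median −0.12), among them Slc25a20 (−0.58), Etfa (−0.43) and Hadhb (−0.38). Peroxisomal oxidation genes had 1 higher and 2 lower of 12 (median −0.12), among them Acox3 at 0.29 and Ehhadh at −0.53, and activation and transport genes 2 higher and 1 lower of 14 (median −0.10), Acsl3 at 0.36, Acsl4 at 0.29 and Acsl6 at −0.36. Each list had a smaller share of calls in either direction than the 28.6% of all identifiers. The share called lower exceeded the 13.2% of all identifiers in each list but activation and transport, and these shares were not tested. With the slide block 0 were called in any of the 5.

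In striatum the called genes of the 5 lists were Ppargc1b (−0.66, adjusted p 0.00597), Cpt1b (0.47, 0.0130), Acox3 (−0.46, 0.0129) and Slc27a4 (−0.38, 0.0286), and the synthesis list had 0 of 22, also at an unadjusted p under 0.05. Each of the 5 had a smaller share of calls than the 9.82% of all identifiers. Ppargc1b, a coactivator of PPAR receptors, thus had opposite signs in frontal cortex and striatum, and the difference was 1.13 (adjusted p 0.000122). In hypothalamus limma called 0 genes in each of the 5, with 0, 1, 3, 2 and 1 at an unadjusted p under 0.05 for synthesis, regulators, mitochondrial, peroxisomal and activation genes, against 0.43% of all identifiers called and 13.2% at that p.

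Between regions on SC arrays 43.2% of all identifiers were called in hypothalamus against frontal cortex (22.8% higher, 20.4% lower) and 21.5% against striatum (10.7% higher), and the list counts are to be read beside these shares. The other synthesis genes had 9 higher and 2 lower of 22 in hypothalamus than in frontal cortex (median 0.19 against 0.02 for all; 3 and 1 with the slide block), with Slc25a1 at 0.75, Fads6 at 0.64, Elovl5 at 0.63 and Thrsp at −0.80. Against striatum they had 6 higher and 0 lower (median 0.17 against 0.03; 5 and 0 with the block), with Fads3 at 0.93, Acacb at 0.75, Me1 at 0.68 and Fads2 at 0.53. Mitochondrial oxidation genes had 6 higher and 1 lower of 21 against frontal cortex (median 0.16), with Cpt2 at 0.85, and 2 higher and 1 lower against striatum, with Cpt2 at 0.55. Regulators had 4 higher and 8 lower of 22 against frontal cortex, with Pparg at −1.76, and 1 higher and 5 lower against striatum, with Rxrg at −2.36. Peroxisomal genes had 3 higher and 5 lower of 12 against frontal cortex and 0 higher and 1 lower (Crot, −0.34) against striatum. Activation and transport genes had 5 higher and 3 lower of 14 against frontal cortex, with Lpl at −1.72, and 6 higher and 2 lower against striatum, with Lpl at −3.35 and Fabp7 at 1.29. The genes named for these region differences were chosen after their values were seen, by the size of the difference.

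The identifiers whose log2 values ran most like those of a member over the 23 arrays are a description, since the arrays share regions, slides and mice. For Scd1 they were Bbox1 (Pearson r 0.975) and Slc6a9 (0.964), for Scd2 Sepp1 (0.974), Arhgap12 (0.973) and Lrig1 (0.973), and for Elovl6 Eif5a2 (0.953), Hspa4l (0.953) and Tmem229a (0.948). For Srebf1 they were Olig2 (0.950), Sall2 (0.947) and Micall1 (0.947), for Acaca BC023946 Mast1 (0.961) and Spin2 (0.955), for Acaca NM_133360 Rab3a (0.879) and Tmem8 (0.865), and for Fasn Slc25a38 (0.854) and Thoc3 (0.851). For Cpt1c they were Prrc2a (0.958) and Bre (0.930), for Cpt1a Acaa2 (0.909), Slc12a4 (0.900) and Ifnar2 (0.897), for Acadm Cnbp (0.884), and for Ppara Atxn7 (0.796) and Serpina3k (0.759). Among the members themselves the highest values were those of Scd1 with Scd2 (0.963), Scd2 with Elovl6 (0.913), Scd1 with Elovl6 (0.881) and Scd1 with Srebf1 (0.879), and Cpt1a with Acadm had 0.715. Scd2 with Cpt1c had −0.681, the first high and the second low in hypothalamus.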

How the data were processed

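The authors read spot intensities with Feature Extraction 10.7.3.1, and the deposited log2 values are background-corrected and quantile-normalised intensities. They were rebuilt from the scanner output: normexp with offset 0 on the median spot signal, quantile normalisation over 23 arrays, removal of probes with a log2 signal not above 1.1 times the log2 95th percentile of 308 negative controls on at least 4 arrays, and the mean per identifier. The model (R 4.3.3, limma 3.58.1, statmod 1.5.0, data.table in version 1.17.8) had 6 group means, array weights estimated gene by gene and a random block for the mouse, as mice gave several regions, and was tested on simulated data. The simulated arrays had equal noise and no effect of mouse or slide, so that test cannot check the weights, the mouse block or the slide. Residuals of arrays of the same mouse had a median correlation of 0.0236 (22 pairs) against 0.00438 for different mice (198 pairs), and the block correlation was −0.0398. Figures used Python 3.11.15, pandas 2.3.3 and matplotlib 3.10.9.

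Named genes were every member identifier, for each list of fatty acid genes and diet comparison the called genes (all if 4 or fewer, otherwise the 4 with the largest change), for each cell type list its brightest gene and its called genes, and for each member the 3 identifiers with the highest Pearson r where they had a symbol. Members and lists were chosen with earlier results of these data known. Not found by symbol were Elovl3, Eci1, Eci2 and Lamp5, among others, and an older or newer symbol may hide a measured gene, as Drd1 and Penk1 were listed beside Drd1a and Penk. Some genes that these rules name are not reported here. Alternatives tried were a fixed or random slide block, no mouse block, no array weights or weights by REML, normexp with offset 50, the mean spot signal, the processed signal scaled to the 75th percentile, quantile normalisation within each region, no filter, a filter on spots well above background, 1 value per probe name, only the arrays of the regions compared, and each array left out in turn.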

Additional observations from a re-analysis of the deposited data

Results flagged for a closer look

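In 55 groups of 4 arrays the gap between the most extreme array and its nearest neighbour was divided by the range of the group and compared with Dixon's 95% critical value for 4 values. Chance flags about 1 in 20 groups, and 4 of 55 were beyond the value. Scd1 on SC frontal cortex L52 had a ratio of 0.904 (11.08 against 11.50 to 11.54), Srebf1 on CM striatum O58 one of 0.862 (8.28 against 7.97 to 8.01), Cpt1a on CM striatum O58 one of 0.878 (10.45 against 9.90 to 9.96) and Ppara on CM hypothalamus O54 one of 0.853 (8.24 against 8.37 to 8.39).

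The diet effect differed between regions by the interaction test in limma for 4 identifiers. The effect in frontal cortex minus that in striatum was −0.36 for Acaca NM_133360 (adjusted p 0.0471; 0.23 and 0.168, not called, for the other row of Acaca, BC023946), −0.50 for Cpt1c (adjusted p 0.00642) and −0.45 for Fasn (adjusted p 0.0333). The effect in frontal cortex minus that in hypothalamus was −0.44 for Scd1 (adjusted p 0.0255). None was called with a fixed slide block, where the values were −0.08, −0.55, −0.02 and −0.01.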

How the results depend on the processing

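Over the other processing choices, 1659 log2 differences kept their sign and their side of the threshold, 84 lost a call, 26 gained one, 74 changed sign without a call in either fit, and 5 changed sign with a call in the reported fit or the other. With 1 array left out the numbers were 1110, 61, 19, 75 and 0, in the same order. The number of members called, of 11, was 2 between diets in frontal cortex, 0 in striatum and 0 in hypothalamus. In frontal cortex it was 0 with a fixed slide block, 0 with a random slide block and 0 without array weights (limma, unadjusted p under 0.05: 1, 1 and 3), 1 with the mean spot signal, with no filter and with only the arrays of the regions compared, 3 with 1 value per probe name, and 4 with normexp offset 50, with the processed signal and with a filter for spots well above background. In striatum it was 2 with 1 value per probe name. For striatum against frontal cortex on SC (2) it was 0 with a random slide block, 0 with no filter and 0 with only the arrays of those regions (unadjusted 4, 3 and 3), 3 with a fixed slide block, and 1 with the mean spot signal and with 1 value per probe name. There the processed signal gained Acaca BC023946 (−0.35, limma adjusted p 0.0308) and Srebf1 (0.47, 0.0363) and lost Scd2 (0.29, 0.0764). On CM arrays, added after seeing the data, striatum against frontal cortex (10) gave 0 with the fixed slide block (unadjusted 2) and 6 with the random one, and hypothalamus against frontal cortex (10) gave 4 and 6, and 5 without array weights. The diet effect differed between frontal cortex and striatum for 3 members, but for 0 with the fixed slide block, 0 with the random one and 0 without array weights (unadjusted 1, 1 and 2), 1 with no filter, and 2 with normexp offset 50 and with only the arrays of those regions. The processed signal lost none of them and gained Ppara (0.49, limma adjusted p 0.0131). For frontal cortex and hypothalamus (1) the number was 0 under the same first 3 choices (unadjusted 1, 1 and 1), and 2 with the processed signal and with 1 value per probe name. Without the mouse block (the pairing of regions) all these counts were equal to those reported. The cause was not tested.

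Values called in the reported fit or the other that changed sign with the fixed slide block were, on CM arrays, Fasn (−0.000844) and Acadm (−0.11) in striatum against frontal cortex and Cpt1c in hypothalamus against frontal cortex (0.0791), and, between diets in frontal cortex, Scd1 (0.0743). With 1 value per probe name Ppara on SC arrays was 0.46 in hypothalamus against frontal cortex and, changed in sign, in striatum against frontal cortex 0.40 (limma adjusted p 0.0443, range over 14 alternatives 0.0443 to 0.997). The cause was not tested.

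With 1 array left out the members called ran from 1 to 2, 0 to 2 and 0 to 0 between diets in frontal cortex, striatum and hypothalamus. On SC arrays they ran from 0 to 5 for striatum against frontal cortex, 6 to 6 for hypothalamus against frontal cortex and 3 (without SC hypothalamus L56) to 7 for hypothalamus against striatum, and on CM arrays from 9 to 10, 6 to 10 and 6 to 7. The interactions ran from 1 to 6 (frontal cortex and striatum), 0 to 1 (frontal cortex and hypothalamus) and 0 to 0 (striatum and hypothalamus), and the thresholds of the study gave 0 throughout (limma, unadjusted counts as in the report).

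Among the scalings, quantile normalisation within each region moved the median of all identifiers on SC arrays to 0.14 for hypothalamus against frontal cortex and 0.19 against striatum, and the processed signal moved the first to 0.12. Against these medians Scd1 stood at 0.83, 0.59 and 0.69, in the same order, Elovl6 at 0.89, 0.73 and 0.71, and Srebf1 at 0.95, 0.64 and 0.90. With the processed signal Scd2 stood at 0.54 against frontal cortex and at 0.25 against striatum (not called), and Acaca BC023946 at 0.08 against frontal cortex (not called), under the median of 0.12. No member called in these comparisons changed sign under a scaling.

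Limits are the 3 or 4 arrays per group, slides that follow diet and region, a hypothalamus sample that held thalamic RNA, and bulk tissue. Signal over background was no limit for the members, whose spots were well above background on 23 of 23 arrays.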
